A study of Homo sapiens with 30 samples.

Results

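A set of 1328 sites of open chromatin in G401 cells had an ATAC-Seq peak in all 3 samples expressing SNF5, in none of 3 samples expressing EGFP, and in at least 1 of 3 samples expressing OmoMYC. These shared sites were chosen by the peak calls themselves, after peaks of all 9 ATAC-Seq samples that overlapped by at least 1 bp had been merged into 40005 sites on hg38. They made up 3.32% of all sites and 36.5% of the 3638 sites gained with SNF5, and the other 2310 gained sites had no OmoMYC peak and are called SNF5-alone sites. G401 is a line from a malignant rhabdoid tumour (MRT) of the kidney that lacks SNF5. The cells were transduced with lentiviruses that carry EGFP, SNF5 or OmoMYC under tetracycline control, and each population was a polyclonal, drug-selected pool rather than 1 clone. All 3 populations, EGFP controls included, received 1 μg/ml doxycycline for 24 h before ATAC-Seq, PRO-Seq (3 samples per construct each) or MYC ChIP-Seq (2 samples per construct). The question that a site of this kind addresses is which SNF5-gained peaks are also called when MYC is blocked without SNF5. A peak call in 1 OmoMYC sample is not a test that the site opened with OmoMYC. The paper compared read counts at its open sites and reported no significant change with OmoMYC at any of them.

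SNF5, encoded by SMARCB1, is a core subunit of SWI/SNF, the complex that uses ATP to move and evict nucleosomes, and its loss is the defining lesion of malignant rhabdoid tumours. Restoring it is known to open enhancers far from genes, where factors such as AP-1 bind, as well as promoters. OmoMYC is a mutant of the MYC dimerization domain that occupies E-boxes (CACGTG) and keeps MYC off them, so it lowers MYC function without adding SNF5. ATAC-Seq marks open DNA by transposase insertion, and PRO-Seq maps engaged RNA polymerases along genes.

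The promoter stretches printed below are picked examples from under shared sites, whereas the motif comparisons further on use all promoter stretches that overlap such a site. Each printed stretch is the part of the 250 bases upstream of a RefSeq start (GRCh38.p14) that lies inside the shared site and outside annotated exons of protein-coding transcripts, written 5′ to 3′ on the strand of the gene. Capitals mark matches on either strand to any of 9 short motifs, which may overlap: AP-1 (TGANTCA), CRE (TGACGTCA), E-box (CACGTG), TEAD (GGAATG), RUNX (TGTGGT), CTCF core (CNAGNNGGC), GC box (GGGCGG), ETS (CCGGAA) and FOX (TGTTTAC). HYLS1 (a centriole protein gene) and ZNF230 (a zinc finger protein gene) have shared sites with a peak in all 3 OmoMYC samples.
HYLS1, chr11:125887536-125887667, plus strand: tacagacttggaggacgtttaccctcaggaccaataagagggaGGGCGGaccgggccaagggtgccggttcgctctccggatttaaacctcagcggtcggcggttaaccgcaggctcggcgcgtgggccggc
ZNF230, chr19:44002707-44002956, plus strand: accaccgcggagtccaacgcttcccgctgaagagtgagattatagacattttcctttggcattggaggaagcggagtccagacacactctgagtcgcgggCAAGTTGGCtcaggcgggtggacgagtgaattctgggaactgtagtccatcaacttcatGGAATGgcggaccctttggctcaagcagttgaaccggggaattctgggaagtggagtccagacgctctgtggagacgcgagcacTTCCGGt

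The next 4 stretches lie at a start of a gene whose PRO-Seq counts changed with SNF5. At SPARC and BMP6 the counted transcript begins within 1 kb of that start, whereas at RUNX1 it begins 160608 bp and at CDKN2A 19625 bp from it, so there the stretch belongs to another start of the gene. RUNX1 encodes a transcription factor of mesenchyme and blood, SPARC a secreted matrix glycoprotein, CDKN2A the cell cycle inhibitor p16 and the protein ARF, and BMP6 a bone morphogenetic protein ligand. GC boxes recurred in 3 of them, and the SPARC stretch held none of the 9 motifs.
RUNX1, chr21:34888700-34888949, minus strand: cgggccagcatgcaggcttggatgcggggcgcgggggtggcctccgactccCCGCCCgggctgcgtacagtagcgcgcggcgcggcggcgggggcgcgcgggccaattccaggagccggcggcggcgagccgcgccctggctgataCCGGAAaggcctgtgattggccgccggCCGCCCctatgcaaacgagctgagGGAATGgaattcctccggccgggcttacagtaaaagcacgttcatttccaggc
SPARC, chr5:151686969-151687074, minus strand: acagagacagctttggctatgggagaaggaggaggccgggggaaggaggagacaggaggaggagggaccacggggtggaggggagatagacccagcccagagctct
CDKN2A, chr9:21974867-21975107, minus strand: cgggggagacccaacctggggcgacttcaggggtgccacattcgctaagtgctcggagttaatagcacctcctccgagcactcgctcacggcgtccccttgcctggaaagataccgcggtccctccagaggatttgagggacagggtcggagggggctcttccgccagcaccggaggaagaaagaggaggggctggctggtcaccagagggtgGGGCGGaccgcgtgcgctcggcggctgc
BMP6, chr6:7725905-7726098, plus strand: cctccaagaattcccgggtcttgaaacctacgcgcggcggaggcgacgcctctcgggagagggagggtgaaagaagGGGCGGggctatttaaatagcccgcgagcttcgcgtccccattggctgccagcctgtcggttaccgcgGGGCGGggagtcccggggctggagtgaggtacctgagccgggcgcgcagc

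MYC was detected by ChIP-Seq in both EGFP samples at these starts of C1QBP (a mitochondrial matrix protein) and DUS3L (a tRNA dihydrouridine synthase). At SLC3A2 (the heavy chain of amino acid transporters) the MYC peak lay at the start of the counted transcript, 24851 bp from the start printed here, where no MYC peak was called in both samples. None of these 3 stretches holds CACGTG, which says only that these letters are not in this part of the window.
SLC3A2, chr11:62880669-62880862, plus strand: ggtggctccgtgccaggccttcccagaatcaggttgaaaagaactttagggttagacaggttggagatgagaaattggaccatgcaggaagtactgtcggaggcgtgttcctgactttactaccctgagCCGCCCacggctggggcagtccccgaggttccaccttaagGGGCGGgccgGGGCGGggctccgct
C1QBP, chr17:5439156-5439337, minus strand: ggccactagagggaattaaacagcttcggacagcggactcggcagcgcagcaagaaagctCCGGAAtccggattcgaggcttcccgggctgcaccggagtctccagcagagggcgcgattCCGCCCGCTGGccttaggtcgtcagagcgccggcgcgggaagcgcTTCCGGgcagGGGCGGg
DUS3L, chr19:5791226-5791413, minus strand: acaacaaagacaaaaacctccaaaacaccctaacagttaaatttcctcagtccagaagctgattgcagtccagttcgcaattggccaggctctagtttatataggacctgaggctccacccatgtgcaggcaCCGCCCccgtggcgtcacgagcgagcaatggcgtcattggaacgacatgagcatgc

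Some promoters under shared sites did hold an AP-1 motif or an E-box. For each motif, the 3 examples with the highest SNF5 peaks whose flanks lie inside the site and outside annotated exons are printed, with 25 bases to each side and the motif in capitals. The AP-1 examples are NSRP1 (a splicing factor gene), MMP10 (a secreted metalloproteinase gene) and LOC124901448.
NSRP1, chr17:30116691-30116747, plus strand: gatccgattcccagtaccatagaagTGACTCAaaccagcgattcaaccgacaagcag
MMP10, chr11:102780664-102780720, minus strand: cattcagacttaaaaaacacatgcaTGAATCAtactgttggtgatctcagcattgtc
LOC124901448, chr6:158853464-158853520, plus strand: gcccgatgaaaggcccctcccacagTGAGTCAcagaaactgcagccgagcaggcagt

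The E-box examples are NORAD (a long noncoding RNA), ARMCX5-GPRASP2 (a read-through gene) and CYTH3 (a guanine nucleotide exchange factor gene of ARF proteins). The NORAD site had a peak in 2 of 3 OmoMYC samples, and the sites at the other two genes in 1.
NORAD, chr20:36051068-36051123, minus strand: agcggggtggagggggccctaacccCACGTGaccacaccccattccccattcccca
ARMCX5-GPRASP2, chrX:102659880-102659935, plus strand: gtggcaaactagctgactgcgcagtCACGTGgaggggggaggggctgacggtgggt
CYTH3, chr7:6272653-6272708, minus strand: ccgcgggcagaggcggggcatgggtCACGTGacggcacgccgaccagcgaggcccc

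The OmoMYC samples contributed very unequally to the shared sites. OmoMYC replicate 1 had 7260 peaks in all, replicate 2 had 23684 and replicate 3 had 12224, against 12484, 17817 and 9208 in the EGFP samples and 33596, 26604 and 22722 in the SNF5 samples. Of the 1328 shared sites, 31 (2.33%) had a peak in OmoMYC replicate 1, 1294 (97.4%) in replicate 2 and 279 (21.0%) in replicate 3. Replicate 2 alone carried 1023 of them, so most shared sites rest on 1 library. With OmoMYC replicate 2 left out before merging, 306 sites met the rule in place of 1328, 8.40% of the gained sites. Peaks were seen in 2 OmoMYC samples at 266 sites and in all 3 at 5. Read depth was not analysed here, and its part in these counts was not tested.

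**Figure D1:**
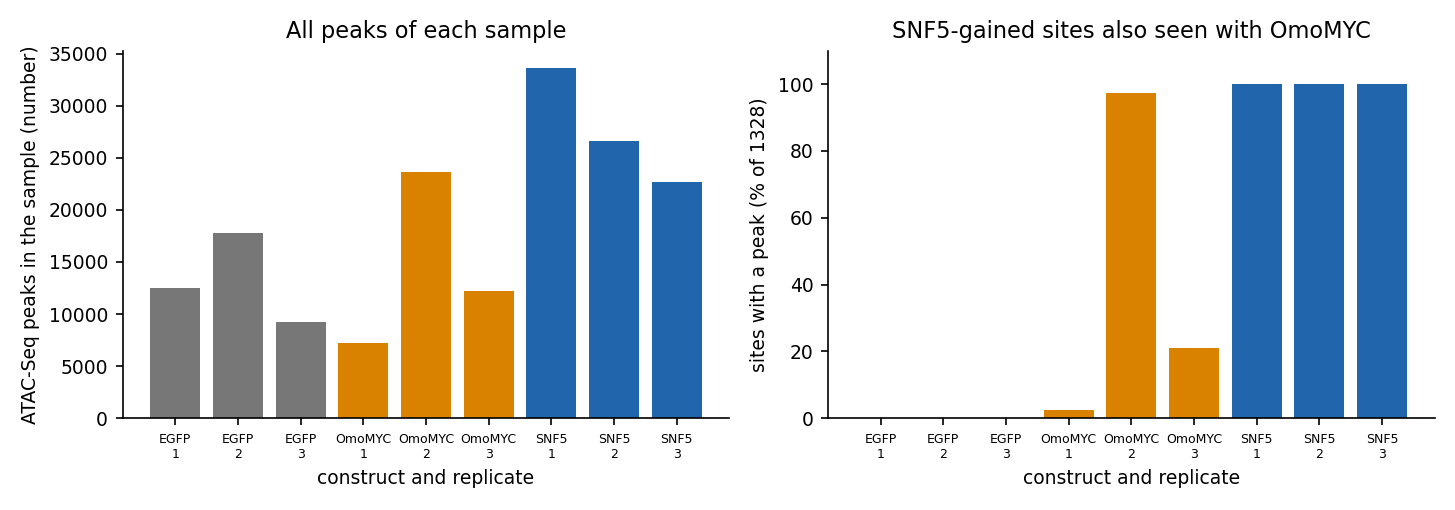
Left, number of ATAC-Seq peaks in each of 9 samples (3 per construct). Right, share of the 1328 shared sites with a peak in each sample, in percent, where 0 in EGFP and 100 in SNF5 are set by the rule. OmoMYC replicate 2 reaches 97.4% and replicates 1 and 3 reach 2.33% and 21.0%.

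The sites just beyond the rule were numerous. In 2764 sites the pattern differed only in that 1 EGFP sample had a peak, and there the EGFP peak had a median fold enrichment of 5.71 over the local background (range 2.79 to 10.6). Another 1746 sites differed only in having 2 of 3 SNF5 peaks. Among members, the weakest of the 3 SNF5 peaks had a median −log10 q of 7.43, from 3.04 to 30.2. The member nearest the threshold lay 158 bp from the start of TMEM150C, a transmembrane protein gene, with fold enrichments of 5.56, 3.82 and 4.46 in SNF5 replicates 1 to 3 and 4.99 in OmoMYC replicate 2. Seen from the OmoMYC side, 6637 sites had an OmoMYC peak and no EGFP peak. Of these, 1590 had no SNF5 peak, 1973 had 1, 1746 had 2 and 1328 (20.01%) had 3. Where at least 2 OmoMYC samples had the peak, the share with all 3 SNF5 peaks was 45.2% of 599 sites, or 271 sites.

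At the shared sites, median peak height was between 4.70 and 6.21 in every SNF5 and OmoMYC sample. Fold enrichment over the local background, as the peak caller gives it, had a median of 5.82, 6.21 and 6.03 in SNF5 replicates 1 to 3. In OmoMYC replicate 2 it was 5.88 (middle 50% from 5.03 to 6.79), in replicate 3 it was 5.86 over 279 sites, and in replicate 1 it was 4.70 over 31. At the 1294 sites with a peak in OmoMYC replicate 2, that peak was higher than the peak of SNF5 replicate 1 at 54.0%, of SNF5 replicate 2 at 38.7% and of SNF5 replicate 3 at 44.6%. SNF5-alone sites had median SNF5 heights of 5.75, 6.48 and 6.21. These heights describe called peaks, so sites below the threshold of the caller in a sample have no value there. Sites called in all 9 samples were taller in every sample, with medians from 5.81 in OmoMYC replicate 1 to 8.74 in SNF5 replicate 2. The 271 shared sites with 2 or 3 OmoMYC peaks had SNF5 medians of 6.06, 6.46 and 6.33, against 5.74, 6.14 and 5.94 for those with 1.

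The 5 shared sites with a peak in every OmoMYC sample all lay within 1 kb of a protein-coding start. The site at APH1A, a gamma-secretase subunit gene, covered chr1:150268941-150269270, with its summit 45 bp from the start in a stretch where APH1A and C1orf54 overlap. Its fold enrichment was 4.74, 5.38 and 4.52 in OmoMYC replicates 1 to 3 and 4.99, 5.64 and 6.78 in SNF5 replicates 1 to 3. The site at HYLS1 (chr11:125887536-125888260) had 5.39, 5.69 and 4.997 with OmoMYC and 5.91, 5.83 and 5.78 with SNF5, so each SNF5 peak was taller than each OmoMYC peak. The site at ZNF230 (chr19:44002703-44003113) was the tallest of the 5. It had 6.33, 6.21 and 7.24 with OmoMYC and 8.29, 7.002 and 8.87 with SNF5. At WDCP (chr2:24049516-24049870, a WD repeat protein gene whose promoter lies inside MFSD2B) the values were 4.19, 5.22 and 4.33 with OmoMYC and 6.04, 5.23 and 6.05 with SNF5. At COL27A1, a fibrillar collagen gene (chr9:114305826-114306104, summit 257 bp from the start), they were 4.59, 4.34 and 5.18 with OmoMYC and 5.65, 5.32 and 5.31 with SNF5.

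The 6 shared sites chosen for the tallest SNF5 peaks lay at least 19676 bp from a protein-coding start, and each had a peak in a single OmoMYC sample. Ranked by the lowest of the 3 SNF5 peaks, the first was between genes on chr9:103397867-103398213, 385991 bp from CYLC2, with fold enrichments of 10.2, 11.0 and 12.1 with SNF5 and 6.84 in OmoMYC replicate 3. A site in an intron of CTNNA2 (alpha-catenin of neurons; chr2:79717358-79717941) had 9.98, 11.3 and 12.1 with SNF5 and 4.91 in OmoMYC replicate 2. A site 80305 bp from CDK6, the G1 cyclin-dependent kinase gene (chr7:92916646-92917141), had 9.35, 11.9 and 9.46 with SNF5 and 6.97 in OmoMYC replicate 2. The others of this kind were nearest to SLITRK5 (547189 bp away), GOLM1 (27388 bp) and CTSO (393728 bp).

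Shared sites lay closer to transcript starts than SNF5-alone sites did, but less often within 1 kb of one than merged sites as a whole. A summit within 1 kb of a start (GENCODE release 44, any gene type) was seen at 428 of 1328 shared sites, or 32.2% (exact 95% interval from 29.7 to 34.8). It was seen at 14.4% of the 2310 SNF5-alone sites (13.0 to 15.9) and at 91.4% of the 5292 sites called in all 9 samples. Over all 40005 merged sites it was 39.5%. The difference between shared and SNF5-alone sites was 17.9 percentage points, with a 95% Newcombe interval from 14.98 to 20.8. At least 5 kb from a start lay 53.6% of the shared sites, against 69.6% of the SNF5-alone sites and 6.18% of those in all 9 samples. Of all merged sites 47.2% lay that far away. Here the difference between shared and SNF5-alone sites was -16.0 points (-19.3 to -12.7). It was -16.1 points (-21.9 to -10.3) without OmoMYC replicate 2, when 306 sites remained in the shared class. With replicate 2 of all 3 constructs left out it was -7.66 points (-10.4 to -4.93). Median distances were 6521 bp for shared and 12662 bp for SNF5-alone sites. Sites with 3 SNF5 peaks and 1 or 2 EGFP peaks were closer still, with 47.7% of 6527 within 1 kb. Neighbouring sites share their surroundings, so these intervals, which treat sites as separate, cover counting error only.

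**Figure D2:**
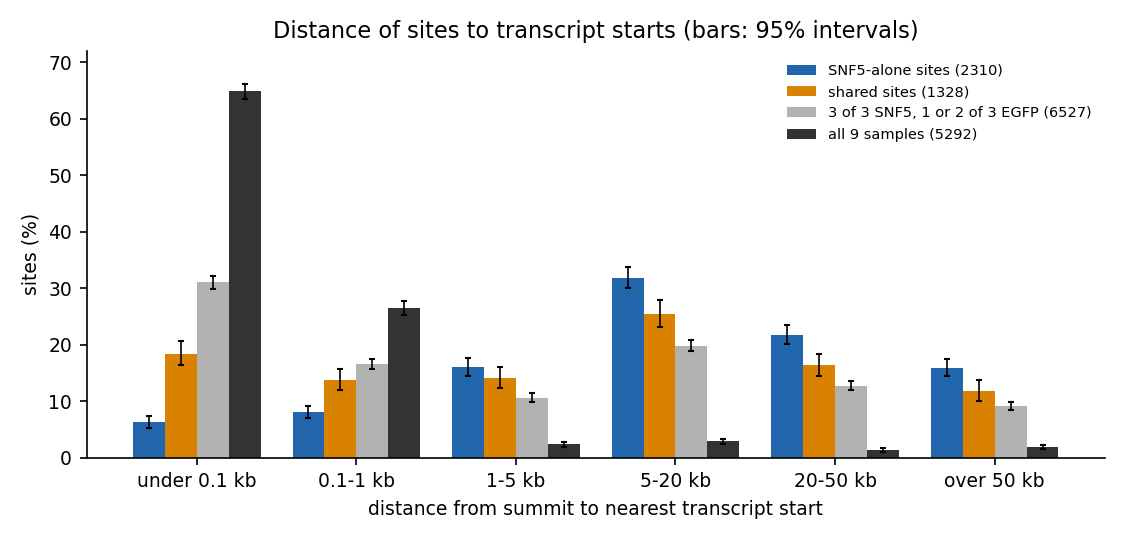
Share of sites (percent, vertical axis) by the distance from the summit to the nearest transcript start, for 4 classes of site, and bars are exact 95% intervals that cover counting error only. In the bin under 0.1 kb the shares rise from 6.32% of SNF5-alone sites to 18.4% of shared sites, 31.1% of sites with 1 or 2 EGFP peaks and 64.9% of sites in all 9 samples.

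Away from promoters the shared sites fell in introns and between genes. More than 1 kb from a protein-coding start, 362 (27.3%) were in introns, 586 (44.1%) between genes, 19 in UTR exons and 7 in coding exons. Introns held 36.9% of SNF5-alone sites, 9.67 points more (interval of the shared minus SNF5-alone difference from -12.7 to -6.53). Of all merged sites 25.3% were in introns and 38.2% between genes by the same measure. Of the shared sites, 98 (7.38%) had another shared site within 50 kb, whereas 17.6% of the SNF5-alone sites had another of their own kind, though the second class holds more sites. Their median width was 289 bp, against 316 bp for SNF5-alone sites and 680 bp for sites in all 9 samples. Shared sites made up 54.5% of the gained sites on chromosome 19, 55.7% on chromosome 17 and 68.8% (11 of 16) on chromosome 22, and 30.7% on chromosome 3.

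A few genes were nearest to several shared sites. PRSS58, a serine protease gene on chromosome 7, was nearest to 5, and all 5 summits lay between 142299177 and 142813399, the stretch that the T cell receptor beta segments span in the annotation. DYNC1I1 (a dynein intermediate chain), GPC5 (a glypican), LSAMP (a neuronal adhesion protein) and MED13L (a Mediator subunit) were each nearest to 4. For DYNC1I1, which has several starts, each distance runs to the start nearest to that site. A site lay 81881 bp upstream of such a start, a second 3 bp from one and the others 3472 and 62488 bp downstream of one. All 4 sites of LSAMP were in its introns. Within 50 kb, 864 protein-coding genes were nearest to a shared site, 822 of them to 1 site, 39 to 2 and 3 to 3.

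Promoters under shared sites held the AP-1 motif less often than promoters under SNF5-alone sites. The 250 bases upstream of 272 RefSeq starts overlapped a shared site, and TGANTCA was present in 15 of them, or 5.51% (exact 95% interval from 3.12 to 8.93). Of 146 such stretches under SNF5-alone sites 25 held it, or 17.1% (11.4 to 24.2), and of all 35116 promoter stretches 6.57% did. The difference of -11.6 points had a Newcombe interval from -18.9 to -5.36. Without OmoMYC replicate 2 it was -9.43 points (-13.3 to -2.58), with the motif at 1.43% of 70 shared and 10.9% of SNF5-alone promoters. The RUNX motif TGTGGT was also less frequent, at 5.88% of shared and 13.0% of SNF5-alone promoters (difference -7.13 points, -13.9 to -1.44). It was at 6.76% of promoters under sites in all 9 samples and 11.0% of all promoter stretches. Promoters under shared sites held the GC box GGGCGG more often than those under SNF5-alone sites, at 64.3% against 51.4% (13.0 points, 3.08 to 22.7), and less often than promoters under sites in all 9 samples, at 74.7% (-10.4 points). Of all promoter stretches 42.6% held the GC box. Against promoters under sites in all 9 samples, where AP-1 was at 2.45%, shared sites held AP-1 more often, by 3.06 points (0.876 to 6.46). Median GC content was 65.6% under shared, 61.0% under SNF5-alone and 66.0% under sites in all 9 samples, and its part in the motif shares was not tested. The E-box CACGTG was present at 7.35% of shared, 3.42% of SNF5-alone and 9.43% of all-9 promoters, and neither difference had an interval clear of 0. Over all promoter stretches the E-box was at 6.34%, near the share under shared sites. For the CRE, TEAD, CTCF core, ETS and FOX motifs the intervals of shared minus SNF5-alone promoters included 0. The 18 intervals were not adjusted for their number. The 272 stretches come from 222 of the 1328 shared sites and the 146 from 121 SNF5-alone sites, so some share sequence, while the intervals treat each as separate and cover counting error only.

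**Figure D3:**
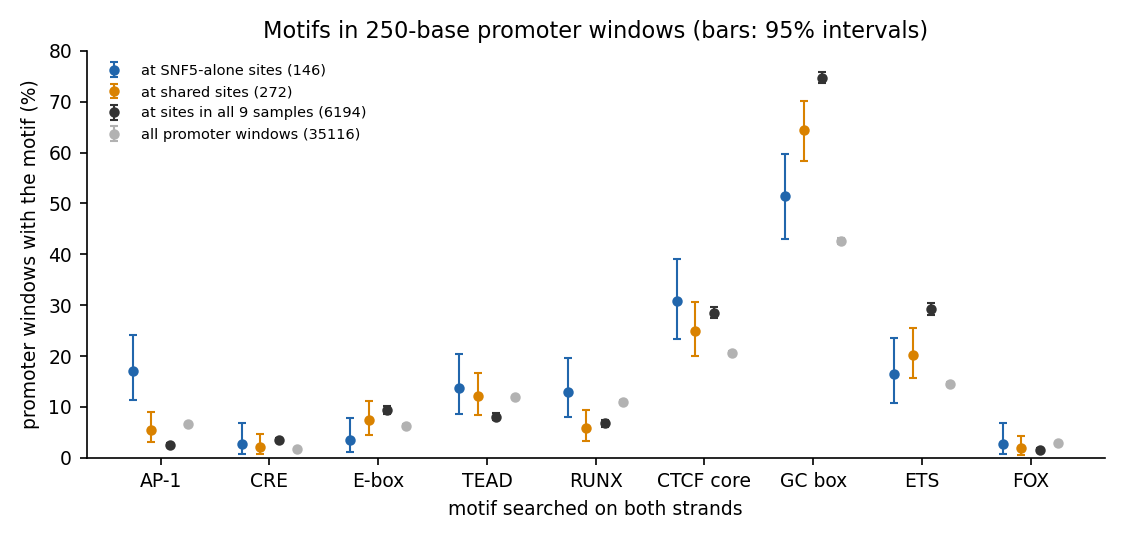
Share of 250-base promoter stretches that hold each of 9 motifs on either strand (percent, vertical axis), by the class of ATAC-Seq site that overlaps the stretch; bars are exact 95% intervals. AP-1 is at 17.1% under SNF5-alone sites, 5.51% under shared sites and 6.57% of all promoters, and the GC box rises from 51.4% to 64.3% to 74.7% in sites of all 9 samples. Over all promoters the GC box is at 42.6%.

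MYC was bound in control cells at some genes with a shared site at a start. The MYC ChIP-Seq files of the EGFP samples hold 940 and 5396 peaks, those of the SNF5 samples 137 and 27, and those of the OmoMYC samples 1 each. Of 336 genes in the PRO-Seq table whose protein-coding start was nearest to a shared site within 1 kb, 17 (5.06%, exact 95% interval from 2.97 to 7.98) had a MYC peak in both EGFP samples within 1 kb of the start of the counted transcript on hg19, against 878 of 20367 genes (4.31%) in the whole table. For SNF5-alone sites it was 2 of 227 (0.881%), a difference of 4.18 points (1.23 to 7.14), and for sites in all 9 samples 385 of 4345 (8.86%). When peaks were instead sought within 1 kb of the start nearest to the site, a choice made after seeing the data, they were found at 15 of 336 genes (4.46%, 2.52 to 7.26), at 0 of 227 with SNF5-alone sites (exact 95% interval up to 1.61%) and at 9.23% of 4345. Of the 17 genes, 3 still had a peak in SNF5 replicate 1, none in SNF5 replicate 2 and none with OmoMYC. METAP1D (a mitochondrial methionine aminopeptidase) had a MYC fold enrichment of 10.6 and 10.8 with EGFP, against 7.02 in SNF5 replicate 1, at a start 21899 bp from the one nearest to its shared site. SLC3A2 had 10.48 and 8.98 in EGFP and 6.77 in SNF5 replicate 1, and DUS3L had 8.96 and 16.8 in EGFP and 5.60 in SNF5 replicate 1. MYO19 (a mitochondrial myosin), C1QBP and C17orf96 (a Polycomb-associated protein) had a peak in both EGFP samples only. The glycolytic enzyme gene GAPDH and the ribosomal protein gene RPS29 were among the others.

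PRO-Seq gene body counts were used to ask whether transcription of the genes next to shared sites changed with each construct. SMARCB1 gene body counts were 4, 1 and 6 in EGFP, 2, 5 and 4 in OmoMYC and 2870, 4467 and 3440 in SNF5 replicates 1 to 3, so the SNF5 libraries match their labels. VIM, KRT8 and KRT18, which rhabdoid cells express, were counted in all 9 samples. With OmoMYC their log2 fold changes were -0.28, -0.30 and -0.31 (adjusted p = 0.0413, 0.0245 and 0.0256), and with SNF5 KRT18 had -0.26 (adjusted p = 0.0082). These calls were lost without replicate 1, at adjusted p of 0.152 for KRT18 with SNF5 and 0.464 or more with OmoMYC, and their part in the results was not tested. Of the markers of other cell types, PECAM1 (endothelium) was at 0 in all 9 samples and PTPRC (blood) at 0 or 1 count. CDH5, an endothelial cadherin gene, ranged from 6 to 44 counts in EGFP and from 27 to 129 with SNF5 (log2 fold change 1.30, standard error 0.29, adjusted p = 0.0091), and its part in the results was not tested. In bulk samples, fewer cells of a type and less RNA per cell cannot be told apart. Total gene body counts ran from 28388012 to 46859674 per sample. Promoter-proximal totals were 517821 to 671718 in the replicate 1 samples and 2024662 to 3381189 in the others.

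With SNF5, 27.6% of the tested genes near shared sites were called higher. Of the 864 genes, 833 were in the table and 721 passed the filter on counts, so the counts below cover these only. Gene body counts were higher with SNF5 than with EGFP at 199 of them (the share above, against 17.6% of all 15060 genes tested) and lower at 100 (13.9%, against 16.5%). The median log2 fold change was 0.07, against -0.03 over all genes. For genes with a start nearest to a shared site and within 1 kb of it the figures were 70 higher (22.9%) and 53 lower (17.3%) of 306. For genes 5 to 50 kb away they were 103 higher (30.9%) and 36 lower (10.8%) of 333. SNF5-alone sites had 454 higher (42.9%) and 61 lower (5.76%) of 1059 genes. Some genes were nearest to both kinds of site. For the 608 tested genes near a shared and no SNF5-alone site, 149 (24.5%) were higher and 93 (15.3%) lower, with a median log2 fold change of 0.04. The counted transcript began more than 1 kb from the start nearest to the shared site at 376 of 833 genes (45.1%), as the annotation places both on hg19. At the 385 tested genes where it began within 1 kb, a choice made after seeing the data, 90 (23.4%) were higher and 66 (17.1%) lower. At the 164 genes near a shared site with a peak in OmoMYC replicate 1 or 3, 51 (31.1%) were higher and 18 (11.0%) lower. The calls depended on pairing the samples by replicate number. Without the replicate block 22 genes near shared sites were higher and 0 lower, and over all genes 218 and 7. Leaving out 1 replicate number, 126 genes near shared sites were called without replicate 1, 113 without replicate 2 and 473 without replicate 3, in place of 299. These are of 724, 715 and 713 genes tested, higher and lower together. They show how the calls depend on the samples, and are not set against the share of all genes called in the same runs.

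With OmoMYC, the calls near shared sites were close to the background. Gene body counts were higher than with EGFP at 39 of 721 genes (5.41%, against 4.10% of all genes) and lower at 38 (5.27%, against 4.42%), with a median log2 fold change of 0.01. Near shared sites with a peak in OmoMYC replicate 1 or 3, 15 of 164 (9.15%) were higher and 7 (4.27%) lower. With edgeR, 0 genes near shared sites were called without replicate 1, without replicate 2 or without the block, where 84, 99 and 48 had an unadjusted p under 0.05, and 359 were called without replicate 3. DESeq2 called 130 in place of 77 with all samples and the block. Over all genes 2 were called without replicate 1, 2 without replicate 2 and 1 without the block. The 359 calls without replicate 3 are of 713 genes tested, and are not set against the share of all genes called in that run. The OmoMYC calls named below therefore hold only with all 3 replicate numbers, or without replicate 3, in the paired fit. Compared directly, counts were higher with SNF5 than with OmoMYC at 147 genes near shared sites (20.4%, against 11.5% of all genes) and lower at 50 (6.93%, against 7.38%). The EGFP samples are common to both comparisons with EGFP.

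**Figure D4:**
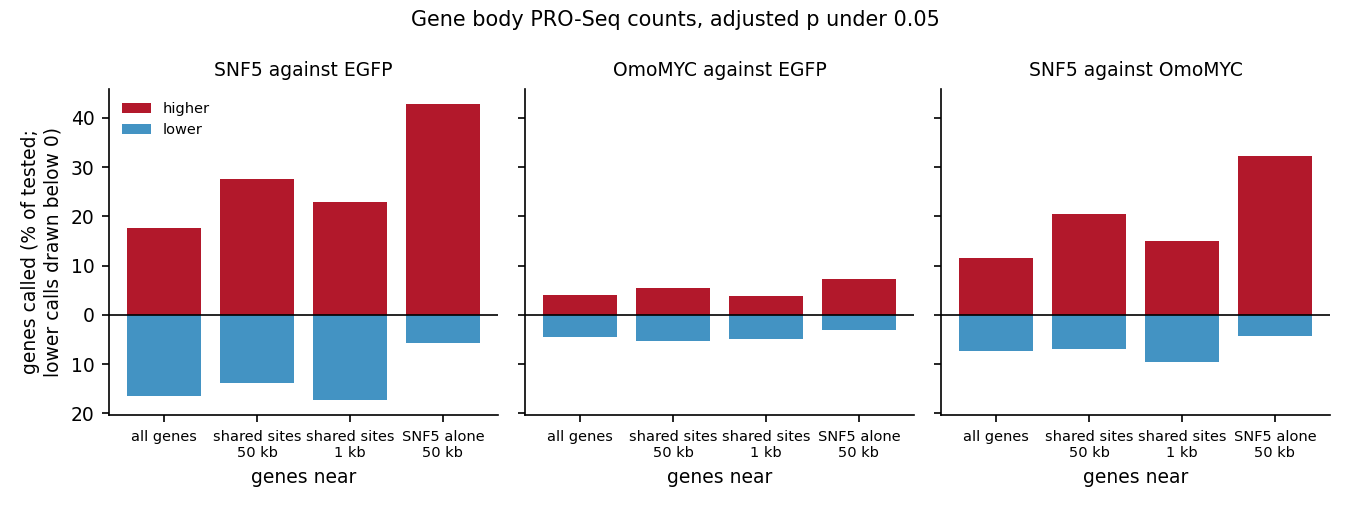
Percent of tested genes with higher (above 0) or lower (below 0) gene body PRO-Seq counts at adjusted p under 0.05, for 3 comparisons and 4 groups of genes by the nearest site. With SNF5 against EGFP 27.6% of genes near shared sites are higher, between 17.6% of all genes and 42.9% near SNF5-alone sites; with OmoMYC against EGFP the share is 5.41%, against 4.10%.

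Promoter-proximal counts, which reflect polymerase paused just after the start, were called as changed at fewer genes. Their totals were far below the gene body totals in every sample, so the numbers of calls do not compare sizes of change. At 376 of 833 genes (45.1%) the counted transcript, and so its window, began more than 1 kb from the start nearest to the site. With SNF5, 25 of 502 genes near shared sites were higher (4.98%, against 2.64% of 11241 genes) and 4 lower (0.797%, against 1.63%). With OmoMYC, 16 were higher (3.19%, against 1.63%) and 1 lower (0.199%, against 0.169%). The median log2 fold change near shared sites was 0.17 with OmoMYC and 0.13 over all genes. Without the block edgeR called 0 genes in either comparison, with 3 and 1 near shared sites at an unadjusted p under 0.05, and DESeq2 with the block called 22 and 13. Without replicate 2 the calls were 5 with SNF5 and 1 with OmoMYC, and without replicate 3 they were 36 and 50. These counts are not set against the share of all genes called in the same runs.

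Among genes near shared sites, the largest rises with SNF5 were at FILIP1L, GKN2, CRNN, DOCK2, COL17A1 and TNS1. FILIP1L, which encodes a filamin-interacting protein, had gene body CPM (counts scaled to the gene body total of the sample) of 7.98, 7.40 and 1.15 in the EGFP samples. They were 8.51, 9.05 and 1.03 for OmoMYC, and 210.4, 237.8 and 64.4 for SNF5. It was higher with SNF5 by 5.10 on the log2 scale (standard error 0.22, adjusted p = 4.86e-06), and the OmoMYC value was 0.08 (adjusted p = 0.86). All SNF5 samples lay far above all others. The shared site was 45312 bp from a FILIP1L start, and the counted transcript begins 238062 bp from that start. Such a gap was 438197 bp at DOCK2, 52912 bp at COL17A1 and 42064 bp at TNS1, and under 1 kb at GKN2 and CRNN. COL17A1, a transmembrane collagen of hemidesmosomes, had 0.689, 1.26 and 0.555 in EGFP and 12.0, 12.0 and 8.15 with SNF5 (log2 fold change 3.74, standard error 0.24, adjusted p = 3e-05). TNS1, a tensin that ties actin to integrins, had 0.143, 0.432 and 0.704 in EGFP, 0.929, 1.13 and 0.685 with OmoMYC and 4.32, 3.91 and 4.69 with SNF5 (log2 fold change 3.33, standard error 0.40, adjusted p = 0.000523). DOCK2, an exchange factor of RAC known from blood cells, had a shared site with 2 OmoMYC peaks 4484 bp from a start. Its SNF5 CPM were 9.85, 16.7 and 2.35, against 0.172, 0.797 and 0.534 in EGFP. CRNN, an epithelial differentiation gene, had raw counts of 4, 8 and 3 in EGFP and 82, 155 and 108 with SNF5. GKN2, a stomach epithelium gene, had 2, 1 and 0 raw counts in EGFP and 30, 36 and 23 with SNF5 (adjusted p = 0.00263), too few in EGFP for a stable fold change. With each replicate number left out in turn all 6 stayed past the threshold, at adjusted p up to 0.0389. Without the block COL17A1, DOCK2 and TNS1 passed (adjusted p = 0.0164, 0.0435 and 0.0259), and the other 3 did not (0.0649 to 0.102).

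CDK6, which also had a shared site 23854 bp from a start, 218350 bp from the start of the counted transcript, and listed genes of the matrix rose as well. CDK6 had 255.4, 271.4 and 202.1 CPM in EGFP, 337.9, 380.1 and 195.1 with OmoMYC, and 602.6, 649.1 and 413.7 with SNF5, a log2 fold change of 1.18 (standard error 0.08, adjusted p = 4.4e-05). FBN1, the microfibril protein fibrillin-1, had 91.7, 88.1 and 184.6 in EGFP and 288.7, 280.8 and 384.8 with SNF5 (log2 fold change 1.46, standard error 0.10, adjusted p = 3.88e-05). SPARC, with a shared site 2 bp from a start, had 38.7, 38.0 and 139.6 in EGFP, 39.8, 40.0 and 136.0 with OmoMYC and 133.0, 122.9 and 230.2 with SNF5. In SPARC the EGFP and SNF5 samples overlapped, since replicate 3 was high in every construct, but each SNF5 sample was above the EGFP sample of its own number (log2 fold change 1.41, standard error 0.19, adjusted p = 0.000822). COL5A2, a fibrillar collagen, had 45.6, 51.5 and 34.6 in EGFP, 61.2, 72.3 and 38.8 with OmoMYC and 100.3, 121.1 and 64.1 with SNF5. Its log2 fold change was 1.09 for SNF5 (adjusted p = 2.97e-05) and 0.31 for OmoMYC (adjusted p = 0.035, 0.505 without replicate 1 and 0.446 without replicate 2). ITGAV, the alpha V integrin, had a log2 fold change of -0.05 (adjusted p = 0.60). CTNNA2 rose by 1.27 on the log2 scale (adjusted p = 0.00121) and DYNC1I1 by 1.14 (adjusted p = 0.00688, 0.0541 without replicate 2). From the start nearest to the shared site, the counted transcript begins 130260 bp away at FBN1 and 184912 bp away at CTNNA2. This gap was under 1 kb at SPARC, COL5A2, ITGAV and DYNC1I1. Of the 27 matrix and adhesion genes listed, 4 were nearest to a shared site, against 833 of 20367 genes in the table. Over the list 17 of 23 tested were higher and 1 lower with SNF5, with a median log2 fold change of 1.09. Of all genes tested 17.6% were higher and 16.5% lower. CDK6, FBN1, SPARC, COL5A2 and CTNNA2 stayed past the threshold with each replicate number left out. None of these did without the block, where adjusted p ran from 0.0744 for CDK6 to 0.493 for SPARC.

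**Figure D5:**
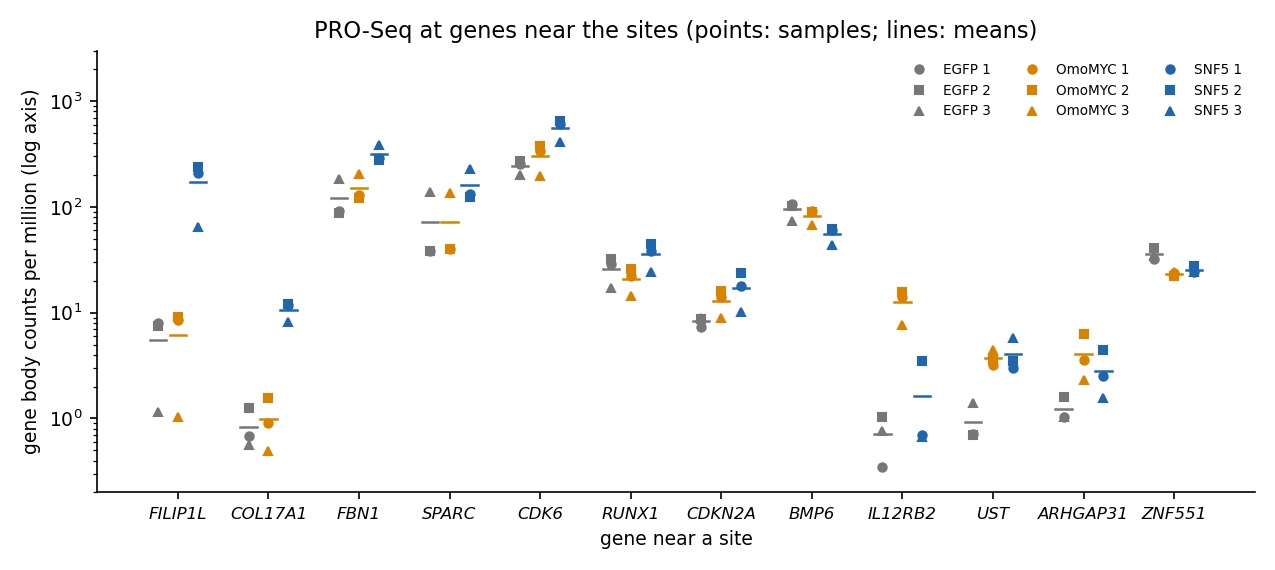
Gene body PRO-Seq CPM (log axis) in each of 9 samples for 12 genes near shared sites; points are samples, shapes are replicate numbers and lines are means of 3. SNF5 points of FILIP1L and COL17A1 lie above all others, OmoMYC points of IL12RB2 lie above all others, and replicate 3 differs from replicates 1 and 2 in the same direction in every construct for SPARC and FILIP1L.

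The largest falls with SNF5 near shared sites were smaller. BMP6 had 107.5, 102.6 and 73.7 CPM in EGFP, 90.7, 89.9 and 67.6 with OmoMYC and 61.0, 61.6 and 43.9 with SNF5, with a shared site 38 bp from a start. Its counts fell by 0.76 on the log2 scale with SNF5 (standard error 0.06, adjusted p = 5.59e-05) and by 0.24 with OmoMYC (adjusted p = 0.0401). TIMP1, an inhibitor of metalloproteinases, had 10.9, 13.6 and 12.6 in EGFP and 7.38, 8.02 and 7.35 with SNF5 (log2 fold change -0.70, adjusted p = 0.00227, 0.0596 without replicate 2). EMP1, a membrane protein of the PMP22 family, had a log2 fold change of -0.57 (adjusted p = 0.00127). CDIPT, the phosphatidylinositol synthase, had a log2 fold change of -0.54 (adjusted p = 0.00722), which was 0.0891 without replicate 1 and 0.124 without replicate 2. At BMP6, TIMP1 and CDIPT the shared site lay within 185 bp of a start. At EMP1 it lay 8928 bp from a start, and the counted transcript begins 16784 bp from that start. Without the block none of the 4 passed (adjusted p from 0.104 to 0.386).

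With OmoMYC the largest rise was at IL12RB2, a subunit of the interleukin-12 receptor. It had 0.344, 1.03 and 0.768 CPM in EGFP, 14.2, 15.8 and 7.69 with OmoMYC and 0.691, 3.52 and 0.674 with SNF5. With OmoMYC the log2 fold change was 4.09 (standard error 0.45, adjusted p = 0.00732), with SNF5 it was 0.93 (adjusted p = 0.169), and SNF5 against OmoMYC differed by -3.16 (adjusted p = 0.00128). Without replicate 1 the OmoMYC value had an adjusted p of 0.125, and without replicate 2 of 0.0974. UST, a sulfotransferase of glycosaminoglycans with a shared site carrying 2 OmoMYC peaks 16233 bp from a start, had 0.717, 0.697 and 1.39 in EGFP, 3.21, 3.56 and 4.45 with OmoMYC and 2.99, 3.49 and 5.80 with SNF5. It was higher with both constructs (log2 fold change 1.98, adjusted p = 0.00663, and 2.13, adjusted p = 0.000197), and the difference between them was 0.14 (adjusted p = 0.628). ARHGAP31, a GTPase-activating protein of RAC and CDC42, was also higher with both, by 1.59 with OmoMYC (adjusted p = 0.0147) and 1.12 with SNF5 (adjusted p = 0.0055, 0.0876 without replicate 1 and 0.106 without replicate 2). The largest falls with OmoMYC were at ZNF551 (log2 fold change -0.65, adjusted p = 0.0154), and at the ribosomal protein genes RPS14 (-0.45, adjusted p = 0.0248) and RPSA (-0.44, adjusted p = 0.0496). With SNF5 the values were -0.49 for ZNF551 (adjusted p = 0.00504), -0.31 for RPS14 (adjusted p = 0.0173, 0.111 without replicate 1 and 0.19 without replicate 2) and -0.18 for RPSA (adjusted p = 0.253). Without replicate 1 the adjusted p with OmoMYC was 0.256 for UST, 0.388 for ZNF551 and 0.451 for ARHGAP31, and without the block it was 0.678 or more for all 6 genes. From the start nearest to the shared site, the counted transcript begins 319041 bp away at UST, 36360 bp at IL12RB2 and 30519 bp at ARHGAP31. This gap was 4090 bp at RPSA and under 1 kb at ZNF551 and RPS14.

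Of the 5 genes with a shared site in every OmoMYC sample, 1 of the 4 tested passed with SNF5 and 0 with OmoMYC. Of all genes tested, 17.6% were higher and 16.5% lower with SNF5, and 4.10% higher and 4.42% lower with OmoMYC. So few genes cannot be told apart from these shares. HYLS1 had 10.7, 17.5 and 9.84 CPM in EGFP, 9.92, 22.3 and 10.6 with OmoMYC and 10.2, 18.1 and 7.998 with SNF5, with the constructs overlapping. Its log2 fold change was -0.10 with SNF5 (adjusted p = 0.536) and 0.07 with OmoMYC (adjusted p = 0.724). ZNF230 had 0.07 (adjusted p = 0.729) and 0.16 (adjusted p = 0.464), and COL27A1 had 0.04 (adjusted p = 0.653) and -0.14 (adjusted p = 0.208). WDCP, listed as C2orf44, was lower with SNF5 (log2 fold change -0.28, standard error 0.08, adjusted p = 0.0277), a call lost without replicate 1 (adjusted p = 0.216) and without replicate 2 (adjusted p = 0.214). APH1A is listed at 0 in every gene body column. The counted transcript begins 4168 bp from the start nearest to the site at HYLS1, 2149 bp at WDCP and 150262 bp at COL27A1, and under 1 kb from it at ZNF230.

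Of the 17 genes with MYC at the start of the counted transcript, 16 were tested, and the fold change was negative at 15 with each construct. Of the 16, 6 were lower and 1 higher with SNF5, with a median log2 fold change of -0.27, against -0.03 over all genes, of which 16.5% were lower. With OmoMYC 3 were lower and 0 higher, with a median of -0.20, against -0.00029 and 4.42% lower over all genes. Among all 832 tested genes with MYC at the counted start, near a shared site or not, 345 (41.5%) were lower with SNF5 (median -0.20) and 159 (19.1%) with OmoMYC (median -0.15). Of these 832 genes the fold change was negative at 706 with SNF5 and at 664 with OmoMYC, so negative values were frequent there too. SLC3A2 had 206.0, 250.8 and 233.7 CPM in EGFP, 172.2, 204.0 and 208.5 with OmoMYC and 173.6, 207.1 and 189.4 with SNF5. It was lower with SNF5 (log2 fold change -0.27, adjusted p = 0.00618) and with OmoMYC (-0.29, adjusted p = 0.0258), and the difference between them was 0.02 (adjusted p = 0.86). DUS3L (-0.42, adjusted p = 0.00444) and C17orf96 (-0.46, adjusted p = 0.00453) were lower with SNF5, and with OmoMYC had -0.13 (adjusted p = 0.31) and -0.14 (adjusted p = 0.318). C1QBP had -0.27 (adjusted p = 0.0651) with SNF5 and METAP1D -0.13 (adjusted p = 0.378). Without replicate 2 the SNF5 values of SLC3A2, DUS3L and C17orf96 had adjusted p of 0.107, 0.069 and 0.098, and without replicate 1 of 0.0824, 0.0698 and 0.0248. The OmoMYC value of SLC3A2 had 0.471 without replicate 1. MYO19 was too low in the gene body to be tested.

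The other listed pathways had few genes near shared sites, and so did the table as a whole. There 833 of 20367 genes were nearest to a shared site within 50 kb, and 1178 to an SNF5-alone site. Of the listed genes, 7 of the TGF-beta and BMP pathway and 7 of matrix and adhesion were nearest to an SNF5-alone site. So were 7 receptor tyrosine kinase and ERK feedback genes and 3 actin cytoskeleton and smooth muscle genes. The numbers were 2 for kidney and mesenchyme factors, 1 for AP-1 and ATF factors and 0 for cell cycle inhibitors. With SNF5, 17.6% of all genes tested were higher and 16.5% lower. Of 24 genes of the TGF-beta and BMP pathway only SMAD7, the inhibitory SMAD, was nearest to a shared site (64 bp from a start, 20529 bp from the start of the counted transcript). It had 123.3, 105.0 and 87.8 CPM in EGFP and 174.6, 138.4 and 118.6 with SNF5 (log2 fold change 0.45, standard error 0.07, adjusted p = 0.00156). Over the list 9 of 23 tested genes were higher and 1 lower with SNF5. BMP6, which was lower with SNF5 and had a shared site at a start, was not on the list. Of 18 AP-1 and ATF factor genes it was JUND alone, and JUND was lower with SNF5 (log2 fold change -0.38, adjusted p = 0.014, 0.194 without replicate 2) and with OmoMYC (-0.45, adjusted p = 0.0298, 0.464 without replicate 1). Over that list 3 of 18 were higher and 7 lower with SNF5. None of 14 YAP and TEAD genes was nearest to a shared site, while 4 were nearest to an SNF5-alone site, and 7 of the 14 were higher and 2 lower with SNF5. Of 22 genes of the actin cytoskeleton and smooth muscle, ACTA2 (log2 fold change 0.64, adjusted p = 0.0141, 0.126 without replicate 1), SORBS2 (0.36, adjusted p = 0.00216) and TNS1 were nearest to a shared site, and all 3 were higher with SNF5. Over that list 11 of 21 tested genes were higher and 0 lower with SNF5, with a median log2 fold change of 0.36. From the start nearest to the shared site, the counted transcript begins 181265 bp away at SORBS2 and 42064 bp away at TNS1. This gap was under 1 kb at ACTA2.

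RUNX1 was higher with SNF5 and lower with OmoMYC. Its CPM were 29.0, 32.1 and 17.2 in EGFP, 22.3, 26.1 and 14.5 with OmoMYC and 38.7, 44.5 and 24.0 with SNF5, so within each replicate number OmoMYC was lowest and SNF5 highest. Against EGFP the SNF5 value was 0.46 on the log2 scale (standard error 0.07, adjusted p = 0.00182) and the OmoMYC value -0.36 (standard error 0.07, adjusted p = 0.0275), and SNF5 against OmoMYC differed by 0.82 (adjusted p = 0.000178). The OmoMYC value was past the threshold neither without replicate 1 (adjusted p = 0.488) nor without replicate 2 (adjusted p = 0.441). The shared site has a peak in 2 OmoMYC samples and lies 120 bp from a RUNX1 start inside the gene, 160608 bp from the start of the transcript counted here. Of the other kidney and mesenchyme factors, TWIST2 had a log2 fold change of -0.28 (adjusted p = 0.0529) with SNF5 and OSR1 was too low to be tested. Over that list 4 of 14 tested genes were higher and 3 lower with SNF5, against 17.6% and 16.5% of all genes tested. CDKN2A, the only one of 7 cell cycle inhibitor genes near a shared site, had 7.34, 8.70 and 8.86 CPM in EGFP, 13.9, 16.1 and 8.82 with OmoMYC and 18.0, 23.7 and 10.1 with SNF5. It was higher with SNF5 (log2 fold change 0.97, standard error 0.21, adjusted p = 0.00873), with an adjusted p of 0.0979 without replicate 1 and 0.111 without replicate 2. Over the inhibitors 3 of 7 were higher and 0 lower with SNF5. Of 21 receptor tyrosine kinase and ERK feedback genes, SPRED2 was higher with SNF5 (log2 fold change 0.26, adjusted p = 0.0272, 0.0689 without replicate 1), and IGF1R (0.23, adjusted p = 0.0507) and DUSP6 (-0.36, adjusted p = 0.0637) did not pass. Over that list 6 of 20 tested genes were higher and 2 lower. From the start nearest to the shared site, the counted transcript begins 65872 bp away at SPRED2, 224187 bp at IGF1R and 1348 bp at DUSP6. Without the block, of the listed genes near shared sites, TNS1 passed with SNF5 and the others did not.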

How the data were processed

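Open chromatin (ATAC-Seq, 9 samples), engaged polymerase (PRO-Seq, 9 samples) and MYC binding (ChIP-Seq, 6 samples; IgG samples not used here) were analysed from the files the authors deposited. The authors trimmed ATAC-Seq and PRO-Seq reads with cutadapt, aligned all reads with Bowtie2 (ATAC-Seq to hg38, the others to hg19) and called peaks per sample with MACS2. For each peak the deposited lists hold enrichment over local background as a fold ratio, with −log10 of its p and q, and no read counts. The authors deposited raw PRO-Seq counts per transcript for the gene body and the promoter-proximal window, with a gene body signal in reads per bp. Every column was mapped to a sample (0 were not).

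The members, gene lists and rules were chosen with earlier results of these data known. Sites were merged at 1 bp of overlap. Distances run from the summit of the strongest SNF5 peak to GENCODE release 44 starts in GRCh38 coordinates, and a gene was near a site when its protein-coding start was the nearest within 50 kb. Nearness does not show that a site acts on a gene. The counted transcript of a gene can begin at another start than the one nearest to the site, and the gap was measured on hg19 for starts that the annotation gives in both builds. Promoter sequences are RefSeq (GRCh38.p14), with no genome sequence of the build of the sites used here, so the planned motif search at summits was not run. The promoter search replaced it and was chosen after seeing the data. Exact (Clopper-Pearson) and Newcombe intervals are at 95%.

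PRO-Seq counts were tested with edgeR 4.0.16 (quasi-likelihood, R 4.3.3, limma 3.58.1) over 1 transcript per symbol with a mean of at least 10 counts, all 9 samples, RLE offsets from gene body counts and the replicate number as a block, with Benjamini-Hochberg adjustment and a threshold of 0.05. After removal of construct means, gene body counts of samples with the same number correlated at 0.822 to 0.922 and others at -0.718 to 0.169, so the numbers were taken as pairs. The paper describes 3 independent PRO-Seq experiments and calls its replicates biological. The labels do not say whether each sample came from its own culture, so p-values may measure less than the full spread between cultures. Reads of overlapping genes and near-identical copies, such as ribosomal protein pseudogenes, may be split or shared in the deposited counts. Alternatives used DESeq2 1.42.0, TMM factors, other filters and fewer samples. On simulated data for SNF5 against EGFP the test was checked and recovered known changes. The simulated replicate effect was the same in every construct, so the simulation does not check the pairing on which the calls depend. Other calculations used Python 3.11.15, SciPy 1.17.1 and statsmodels.

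Genes are named by rule: sites in all 3 OmoMYC samples, the 6 tallest sites with SNF5, the 5 genes nearest to the most sites, the largest called changes near a site whose samples of the construct lie all above or all below EGFP (6 rises and 4 falls with SNF5, 3 and 3 with OmoMYC), the 6 promoters with the highest MYC enrichment, listed genes nearest to a site and the member nearest the threshold, TMEM150C, the last chosen after its values were seen.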

Additional observations from a re-analysis of the deposited data

How the results depend on the processing

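The number of shared sites rests on OmoMYC replicate 2 and on the peak lists compared. In place of 1328 there were 52 sites with equal numbers of top peaks per sample, 3074 with 2 SNF5 samples as the minimum and 271 with 2 OmoMYC samples, and 306 to 2410 with samples left out. The share at least 5 kb from a start was 66.0% with protein-coding starts only and 49.0% to 53.7% with samples left out. Its difference from SNF5-alone sites kept its direction in every run, as did that of AP-1 (-15.4 to -9.43 points), in alternatives chosen after seeing the data.

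Of genes near shared sites, without the replicate block, that is without pairing the samples, 22 were called in gene bodies for SNF5 against EGFP (299 with it), 0 for OmoMYC against EGFP (77) and 8 for SNF5 against OmoMYC (197), and 0 in both promoter-proximal comparisons (29 and 17). With 1 replicate number left out, these 5 counts ran from 113 to 473, 0 to 359, 68 to 376, 5 to 43 and 1 to 50. Such ranges pool higher and lower calls and are not set against the share of all genes called in the same runs. Genes with any protein-coding start within 1 kb, the nearest or not, gave 131, 29, 79, 12 and 6. Alternatives chosen after seeing the data gave 69, 22, 43, 9 and 4 (sites seen in OmoMYC replicate 1 or 3) and 156, 37, 96, 17 and 9 (counted transcript beginning within 1 kb of the start nearest to the site), all from fewer genes. For OmoMYC against EGFP in gene bodies DESeq2 called 130 and the fit of 6 samples 119, and without a minimum count 48 were called in the promoter-proximal SNF5 comparison. Other causes were not tested.

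For named genes, 303 of 464 repeated calls kept direction and side of the threshold, 113 fell below it, 47 rose past it and 1 reversed, LSAMP with SNF5 without replicate 3 (log2 fold change -0.062, adjusted p = 0.0144 with edgeR). Without the block 47 of 52 calls were lost. The AP-1 search at summits was not run. Peak lists without read counts cannot separate an absent peak from one below the threshold.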
